A study of Mus musculus with 9 samples.

Results

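The potassium channel genes were taken as the protein-coding genes in RefSeq's GRCm38 annotation whose symbol starts with Kcn. There were 94 of them. A region was counted for such a gene when it touched the gene's span extended by 10 kb on each side, which gave 81 of the 16884 regions in the authors' table. These regions lay at 40 of the 94 genes, and each was assigned to a single Kcn gene. The other 54 genes had no region to analyse here, among them Kcna4, Kcnd3, Kcnj3 and Kcnj12 of the cardiac genes described below.

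The regions come from chromatin immunoprecipitation with sequencing (ChIP-seq) for NR4A2, an orphan nuclear receptor, on mouse heart ventricle. Of the 6 hearts compared, 3 were from Nr4a2-icTg mice (called NR4A2 mice here), which carry a conditional Nr4a2 knock-in at ROSA26 (EGE-GJ-095) together with αMHC-MerCreMer, a tamoxifen-inducible Cre recombinase driven by the Myh6 promoter. The other 3 were from littermates with αMHC-MerCreMer alone (Control mice). Both groups therefore carried the Cre and received the same single injection of tamoxifen (40 mg/kg, into the peritoneum) at 8 to 9 weeks of age, and both were studied at day 3. The Myh6 promoter directs the induced NR4A2 to cardiomyocytes, while the chromatin came from whole ventricle. In such bulk tissue, fewer cells of a type and less bound NR4A2 per cell cannot be told apart.

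Values are the authors' CPM, in which the reads of a region are scaled to the reads of that library in all listed regions, and replicates are mice (n = 3 in each group). Reads in regions numbered 637635 to 1035856 in NR4A2 mice and 549700 to 1027394 in Control mice, so that 3 reads were worth 2.86 to 5.43 CPM. Each library is scaled to its own total, so a rise or fall common to every region would not show. Strong regions were found at all 7 cardiomyocyte marker genes checked, with a summed signal of 36478 to 45172 CPM in NR4A2 mice and 28116 to 42653 CPM in Control mice. Of their 31 regions 9 were higher and 2 lower by the test described below (29% and 6.45%, against 14.7% and 3.17% of all regions). Signal at Nr4a2 itself was 115, 81.97 and 74.4 CPM in NR4A2 mice, against 6.15, 7.79 and 25.3 CPM in Control mice, in a region within the gene (log2 fold change 2.92 ± 0.37 SE, limma, adjusted p = 8.90e-09). Reads of the transgene and of the gene itself cannot be told apart there. Of 4 regions at Nr4a2, 2 were higher and 0 lower. The uncalled ones had log2 fold changes of -0.09 and -1.12 (limma, adjusted p = 0.837 and 0.0736). At the knock-in locus, Gt(ROSA)26Sor, the called region of higher signal had 319, 303 and 252 CPM in NR4A2 mice and 111, 127 and 147 CPM in Control mice.

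Potassium channels carry the outward currents that end the cardiac action potential and hold the resting potential. Voltage-gated alpha subunits form pores that open on depolarisation, and auxiliary subunits of the Kcnab, Kcne and Kcnip families set how these pores reach the membrane and how they open and close. Inward rectifiers of the Kcnj family and the K2P channels of the Kcnk family act near the resting potential, and the Kcnm and Kcnn channels couple the current to intracellular calcium. In mouse ventricle the fast transient outward current, which shapes the early part of repolarisation, is carried by Kcnd2 and needs the auxiliary subunit encoded by Kcnip2.

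Few regions touched a listed promoter window of a potassium channel gene, but the list of windows is partial. The RefSeq promoter table of GRCm38.p6 holds 94 windows for 69 of the 94 genes, each from 250 bases before to 50 bases after an annotated start, and 4 of these windows, those of Kcnip2, Kcnd2, Kcnj2 and Kcna5, were touched by a region. Kcnk3, Kcnj11, Kcng2, Kcne1 and Kcnq1 are among the genes without a window. For Kcnh2 only a start far inside the gene is listed, although a region lies over its 5′ end. Other promoters may thus lie under a region. The 4 windows are shown because the lower region of Kcnip2 lay on its window, and those of its partner Kcnd2 and of Kcnj2 and Kcna5 are the other listed windows under a region. The sequences run 5′ to 3′ on the strand of the gene, with each CG dinucleotide in capitals.
Window of chr19:45816014-45816313, minus strand:
Kcnip2: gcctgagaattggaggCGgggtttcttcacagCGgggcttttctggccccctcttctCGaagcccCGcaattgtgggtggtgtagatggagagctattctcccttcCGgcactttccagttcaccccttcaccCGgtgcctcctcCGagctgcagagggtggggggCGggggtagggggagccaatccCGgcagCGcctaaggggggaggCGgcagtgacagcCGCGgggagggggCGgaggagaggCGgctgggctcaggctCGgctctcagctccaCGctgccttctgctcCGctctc
Window of chr6:21215096-21215395, plus strand:
Kcnd2: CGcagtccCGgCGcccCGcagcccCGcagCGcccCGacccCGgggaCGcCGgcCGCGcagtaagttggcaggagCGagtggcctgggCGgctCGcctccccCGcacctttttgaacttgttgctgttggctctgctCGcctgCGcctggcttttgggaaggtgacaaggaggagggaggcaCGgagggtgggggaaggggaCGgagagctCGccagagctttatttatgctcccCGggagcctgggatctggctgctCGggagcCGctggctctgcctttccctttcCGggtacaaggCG
Window of chr11:111065914-111066213, plus strand:
Kcnj2: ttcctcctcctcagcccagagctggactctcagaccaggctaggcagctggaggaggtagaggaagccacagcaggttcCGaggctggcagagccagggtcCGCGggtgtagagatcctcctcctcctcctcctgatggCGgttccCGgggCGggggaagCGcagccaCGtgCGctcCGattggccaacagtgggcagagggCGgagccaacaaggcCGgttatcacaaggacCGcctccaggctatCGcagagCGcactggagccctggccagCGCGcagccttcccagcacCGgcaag
Window of chr6:126535506-126535805, minus strand:
Kcna5: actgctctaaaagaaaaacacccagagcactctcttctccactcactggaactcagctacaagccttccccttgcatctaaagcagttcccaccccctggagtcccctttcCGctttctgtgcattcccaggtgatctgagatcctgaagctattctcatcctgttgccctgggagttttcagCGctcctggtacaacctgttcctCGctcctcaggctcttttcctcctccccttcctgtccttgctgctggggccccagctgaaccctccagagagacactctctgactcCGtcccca
The windows of Kcnip2 and Kcna5 lay wholly within their regions, while the region at Kcnj2 covered 242 and that at Kcnd2 68 of the 300 bases. Kcnip2 held 18 CG dinucleotides, Kcnd2 26, Kcnj2 18 and Kcna5 4, against a median of 13 over the windows of all protein-coding genes.

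The binding motif known for NR4A receptors as monomers, AAAGGTCA, was searched on both strands. None of these 4 windows held it, nor its shorter core AGGTCA, which is part of it. Among the 94 windows of potassium channel genes, 1 held AAAGGTCA (1.06%), that of Kcnh1, and 6 held AGGTCA (6.38%). Over the windows of all protein-coding genes the shares were 1.30% and 14.7%. These shares say only which letters are in the windows. The sequence under the regions away from the promoters was not analysed here.

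Signal at potassium channel genes was more often higher than lower in NR4A2 mice. Of the 81 regions, 18 were higher (22.2%), against 14.7% of all regions, and 2 were lower (2.47%), against 3.17% of all regions (limma on log2(CPM + 1), Benjamini-Hochberg adjusted p under 0.05 over the 16884 regions). The share of lower regions was thus near that of the whole table. The higher regions lay at 13 genes and the lower ones at Kcnip2 and Kcnn1, and no gene had regions of both kinds. Over the 81 regions the median log2 fold change was 0.18, against -0.06 over all regions, and it ranged from -1.68 to 3.44. In 25 regions every NR4A2 mouse was above every Control mouse (30.9%, against 19.9% of all regions), and in 5 every NR4A2 mouse was below (6.17%, against 11.7%). The authors' deposited table has 19 of the 81 regions called up (14.9% of all regions are) and 2 called down (1.95% of all regions are). Their calls do not follow from an FDR under 0.05 alone, so the thresholds differ.

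The summed signal of the 81 regions was 4237 to 4318 CPM in NR4A2 mice and 3669 to 3836 CPM in Control mice. The 18 higher regions, picked for their difference, held 988 to 1234 CPM of it in NR4A2 mice and 384 to 498 CPM in Control mice. The 61 regions that were not called held 2949 to 3288 CPM in NR4A2 mice and 3129 to 3319.6 CPM in Control mice, and these ranges overlapped. The higher regions were weak in Control mice, with a median of 8.45 CPM, and had a median of 37.2 CPM in NR4A2 mice. All higher regions in the table had similar medians, 9.70 CPM in Control mice and 38.8 CPM in NR4A2 mice, so this is not particular to channel genes. None of the 81 regions had a library without reads.

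**Figure D1:**
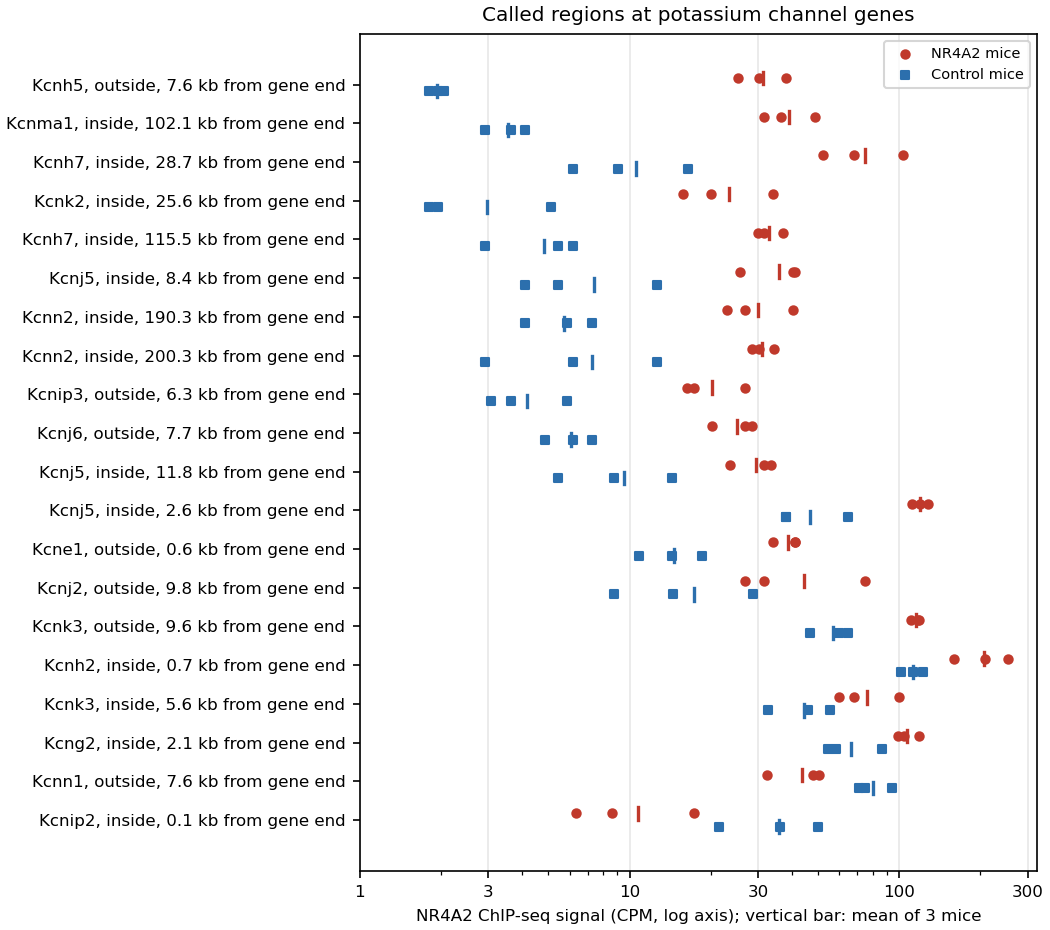
NR4A2 ChIP-seq signal in CPM (log axis) for each mouse at the 20 called regions of potassium channel genes, ordered by log2 fold change from Kcnh5 (3.44) to Kcnip2 (-1.68); vertical bars are means of 3 mice. The NR4A2 mice (red circles) lie right of all Control mice (blue squares) in 17 of the 18 higher regions, the exception being Kcnj2, and left of them in both lower regions.

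Among voltage-gated alpha subunits, 13 of 40 genes had a region, and 5 of their 29 regions were higher and 0 lower. The share higher, 17.2%, was near the 14.7% of all regions, and the median log2 fold change was 0.18. The strongest of the higher regions was at Kcnh2, which encodes ERG, the pore of the rapid delayed rectifier current. The region (chr5:24348791-24350998, 2208 bp long and 686 bp inside the 5′ end of the gene) had 159, 208 and 254 CPM in NR4A2 mice, against 123, 101 and 112 CPM in Control mice. All NR4A2 mice were above all Control mice there (log2 fold change 0.86 ± 0.19 SE, adjusted p = 0.000258), but the call was lost without trend and robust moderation (adjusted p = 0.0643) and on reads not scaled for depth (0.309). The next region, chr5:24351238-24352956, lies over the 5′ end itself and had 181, 126 and 106 CPM in NR4A2 mice, against 113, 116 and 181 CPM in Control mice. The groups overlapped fully at that end (log2 fold change 0.01 ± 0.20 SE).

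The ether-a-go-go relatives Kcnh7 and Kcnh5, known mainly from neurons, had some of the highest fold changes. Within Kcnh7, far from either end, the region chr2:62722135-62722720 had 67.8, 52.02 and 103 CPM in NR4A2 mice, against 6.15, 16.5 and 9.05 CPM in Control mice. It was low in every Control mouse and its groups were well apart (log2 fold change 2.75 ± 0.38 SE, adjusted p = 3.74e-08). The second Kcnh7 region (chr2:62808893-62809102) had 37.2, 29.9 and 31.5 CPM in NR4A2 mice, against 6.15, 2.92 and 5.43 CPM in Control mice (log2 fold change 2.58 ± 0.54 SE, adjusted p = 0.000163). At Kcnh5 the region (chr12:74889362-74889589), 7628 bp beyond the 3′ end, had 38.2, 25.2 and 30.3 CPM in NR4A2 mice, against 2.05, 1.95 and 1.81 CPM in Control mice. Control mice had 1 or 2 reads each there, so the fold is better given as the ratio of depth-scaled reads, 16.5 with a 95% exact binomial interval of 6.79 to 52.3 that covers counting error only (log2 fold change 3.44 ± 0.68 SE, adjusted p = 6.10e-05). These 3 calls held under every alternative fit that included the regions.

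Kcng2, which encodes a modulatory alpha subunit that is silent alone, had 7 regions, as many as Kcnj5 and Kcnk3 and more than the other genes. The strongest of the 7 lies 6516 bp outside the gene, overlaps Slc66a2 and was not called (log2 fold change 0.02 ± 0.17 SE). The region chr18:80360935-80362183, within the gene and 2071 bp from an end of it, had 99.3, 104 and 119 CPM in NR4A2 mice, against 86.1, 58.4 and 54.3 CPM in Control mice, with the groups apart by a small gap (log2 fold change 0.71 ± 0.22 SE, adjusted p = 0.0152). The call did not hold when NR4A2 mouse 3 (adjusted p = 0.106), Control mouse 2 (0.0672) or Control mouse 3 (0.0599) was left out. The authors' deposited table calls the region unchanged, with a log2 fold change of 0.67 and an FDR of 0.0213. That FDR is under 0.05, so the authors' calls do not follow from an FDR under 0.05 alone. A weaker region of the gene (chr18:80350880-80351395) had 42.97, 20.5 and 25.2 CPM in NR4A2 mice, against 11.3, 9.73 and 14.5 CPM in Control mice and did not pass (log2 fold change 1.20 ± 0.45 SE, adjusted p = 0.0519). It passed under 6 of 13 alternative fits, among them edgeR on recovered reads (adjusted p = 0.0265), and the authors' deposited table calls it up. It did not pass with DESeq2 (adjusted p = 0.0573) or without NR4A2 mouse 1 (0.282).

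Regions at Kcnd2, Kcna5 and Kcnq1, which encode alpha subunits of other ventricular currents, did not pass. At the Kcnd2 promoter (chr6:21214622-21215163) the signal was 25.8, 23.6 and 45.4 CPM in NR4A2 mice, against 8.197, 9.73 and 27.2 CPM in Control mice. NR4A2 mice were higher on average, but Control mouse 3 lay within their range (log2 fold change 1.15 ± 0.44 SE, adjusted p = 0.0587). Without Control mouse 3 the region passed (adjusted p = 0.00877). With any other single mouse left out it did not pass (adjusted p = 0.0527 to 0.313). The region over the Kcna5 start, a gene for a delayed rectifier pore (chr6:126535095-126535983), had 91.7, 106 and 63.1 CPM in NR4A2 mice, against 79.9, 105 and 109 CPM in Control mice, with full overlap (log2 fold change -0.19 ± 0.22 SE, adjusted p = 0.616). At Kcnq1, the pore of the slow delayed rectifier, none of 3 regions passed. The strongest (chr7:143296415-143296807) had 34.4, 25.2 and 36.6 CPM in NR4A2 mice, against 26.6, 51.6 and 23.5 CPM in Control mice, with overlap (log2 fold change -0.01 ± 0.35 SE, adjusted p = 0.989). The weakest (chr7:143112527-143112747) had 12.4, 15.8 and 23.96 CPM in NR4A2 mice, against 6.15, 4.87 and 7.24 CPM in Control mice, where all NR4A2 mice were above all Control mice (log2 fold change 1.34 ± 0.62 SE, adjusted p = 0.131).

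**Figure D2:**
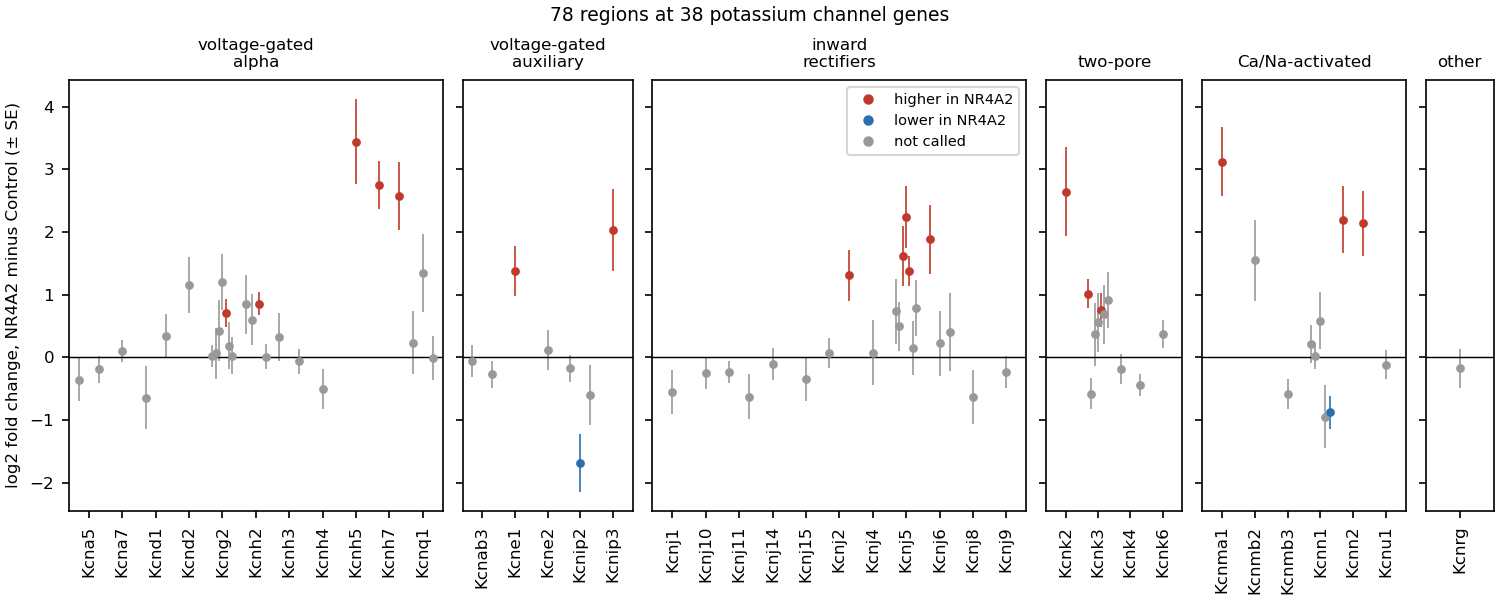
Log2 fold change (NR4A2 minus Control, on log2(CPM + 1)) with its SE for 78 of the 81 regions, by gene and channel family; several points over a gene are its separate regions. Red points are higher (18), blue points lower (2) and grey points not called (58), and the auxiliary subunit Kcnip2 has the lowest value (-1.68).

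Among auxiliary subunits of voltage-gated channels, 5 of 12 genes had a region, with 2 of 8 regions higher and 1 lower (25% and 12.5%, against 14.7% and 3.17% of all regions). The median log2 fold change was -0.12. Signal fell at the promoter of Kcnip2, which encodes KChIP2, the calcium-binding partner of the pore of the transient outward current. The region (chr19:45815812-45816371) lies over the annotated start and had 8.59, 17.3 and 6.31 CPM in NR4A2 mice, against 50.2, 21.4 and 36.2 CPM in Control mice. The 2 groups did not overlap, although NR4A2 mouse 2 and Control mouse 2 came close (log2 fold change -1.68 ± 0.46 SE, adjusted p = 0.00416). Without Control mouse 1, the highest of the Control mice, the call was lost (adjusted p = 0.0854). The 2 other regions assigned to Kcnip2 lay 8671 and 9889 bp outside the gene, overlapped Oga and Armh3, and did not pass (log2 fold changes -0.17 ± 0.22 and -0.60 ± 0.48 SE).

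Signal rose beside Kcne1, whose product joins the Kcnq1 pore to give the slow delayed rectifier current. Its region (chr16:92345122-92345389), 612 bp outside the gene span, had 41.1, 40.98 and 34.1 CPM in NR4A2 mice, against 14.3, 18.5 and 10.9 CPM in Control mice. Every NR4A2 mouse was above every Control mouse (log2 fold change 1.38 ± 0.40 SE, adjusted p = 0.00816), although reads not scaled for depth did not pass (adjusted p = 0.127). In the region 6331 bp beyond the 3′ end of Kcnip3, which encodes calsenilin, a calcium-binding protein of the same family as KChIP2, the values were 26.7, 17.3 and 16.4 CPM in NR4A2 mice, against 3.07, 5.84 and 3.62 CPM in Control mice (log2 fold change 2.03 ± 0.66 SE, adjusted p = 0.0188). That region lies nearer to another gene, Fahd2a, and the call was lost without NR4A2 mouse 1 (adjusted p = 0.124) and without NR4A2 mouse 2 (0.0562). At the region near Kcne2, another small auxiliary subunit, which overlaps Smim11, the groups overlapped (log2 fold change 0.12 ± 0.32 SE, adjusted p = 0.845).

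Among inward rectifiers, 11 of 15 genes had a region, with 5 of 21 regions higher (23.8%, against 14.7% of all regions) and 0 lower (3.17% of all regions). The median log2 fold change was 0.14. Kcnj5 had the most higher regions of any potassium channel gene, 3 of 7. The gene encodes a subunit of the G protein-gated channel that acetylcholine opens, best known from the atria and the pacemaker. Its strongest region (chr9:32340234-32341732), within the gene and 2648 bp from the 5′ end, had 112, 128 and 119.8 CPM in NR4A2 mice, against 64.5, 37.96 and 38.01 CPM in Control mice. The groups were far apart (log2 fold change 1.38 ± 0.24 SE, adjusted p = 4.32e-06). Deeper in the gene, the region chr9:32335734-32336020 had 25.8, 40.98 and 40.4 CPM in NR4A2 mice, against 4.098, 12.7 and 5.43 CPM in Control mice (log2 fold change 2.23 ± 0.49 SE, adjusted p = 0.000342). The third (chr9:32326456-32326778) had 33.4, 23.6 and 31.5 CPM in NR4A2 mice, against 14.3, 8.76 and 5.43 CPM in Control mice (log2 fold change 1.61 ± 0.48 SE, adjusted p = 0.00975), and its call was lost without NR4A2 mouse 1 (adjusted p = 0.0631) and without NR4A2 mouse 3 (0.0567). The pair of regions nearest to the 5′ end did not pass, with log2 fold changes of 0.14 ± 0.43 and 0.79 ± 0.45 SE.

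Kcnj2 encodes Kir2.1, the main pore of the current that sets the resting potential of ventricular cells. On its promoter (chr11:111065972-111066410) the signal was 69.7, 67.8 and 69.4 CPM in NR4A2 mice, against 64.5, 77.9 and 56.1 CPM in Control mice. The NR4A2 mice were nearly equal and lay inside the range of the Control mice (log2 fold change 0.07 ± 0.24 SE, adjusted p = 0.882). A region 9843 bp beyond the 3′ end (chr11:111086668-111087033) had 26.7, 31.5 and 74.4 CPM in NR4A2 mice, against 28.7, 8.76 and 14.5 CPM in Control mice and was called higher (log2 fold change 1.31 ± 0.41 SE, adjusted p = 0.0161). NR4A2 mouse 3 stood well above the other mice, while NR4A2 mouse 1 was below Control mouse 1, so the groups overlapped. Without NR4A2 mouse 3 the log2 fold change was 0.86 and the call was lost (adjusted p = 0.273), as it was without Control mouse 2 (0.122).

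Regions at the pores of the ATP-sensitive channel did not pass. At Kcnj11, the pore found in cardiomyocytes, the stronger of 2 regions (chr7:46097411-46099975) had 169, 153 and 145 CPM in NR4A2 mice, against 226, 174 and 154 CPM in Control mice, with overlap (log2 fold change -0.23 ± 0.18 SE, adjusted p = 0.424), and the weaker had a log2 fold change of -0.63 ± 0.36 SE. At Kcnj8, the pore found in vascular smooth muscle and pericytes, the groups overlapped as well (log2 fold change -0.64 ± 0.43 SE, adjusted p = 0.345). Signal rose in a region 7692 bp beyond the 3′ end of Kcnj6, a neuronal G protein-gated subunit. It had 26.7, 28.4 and 20.2 CPM in NR4A2 mice, against 6.15, 4.87 and 7.24 CPM in Control mice (log2 fold change 1.88 ± 0.55 SE, adjusted p = 0.00836), and without NR4A2 mouse 2 the call was lost (adjusted p = 0.0617). The 8 regions at the remaining inward rectifiers Kcnj1, Kcnj4, Kcnj9, Kcnj10, Kcnj14 and Kcnj15 and at the rest of Kcnj6 were not called. Those assigned to Kcnj4, Kcnj9, Kcnj10 and Kcnj14 lie outside these genes and overlap other genes.

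**Figure D3:**
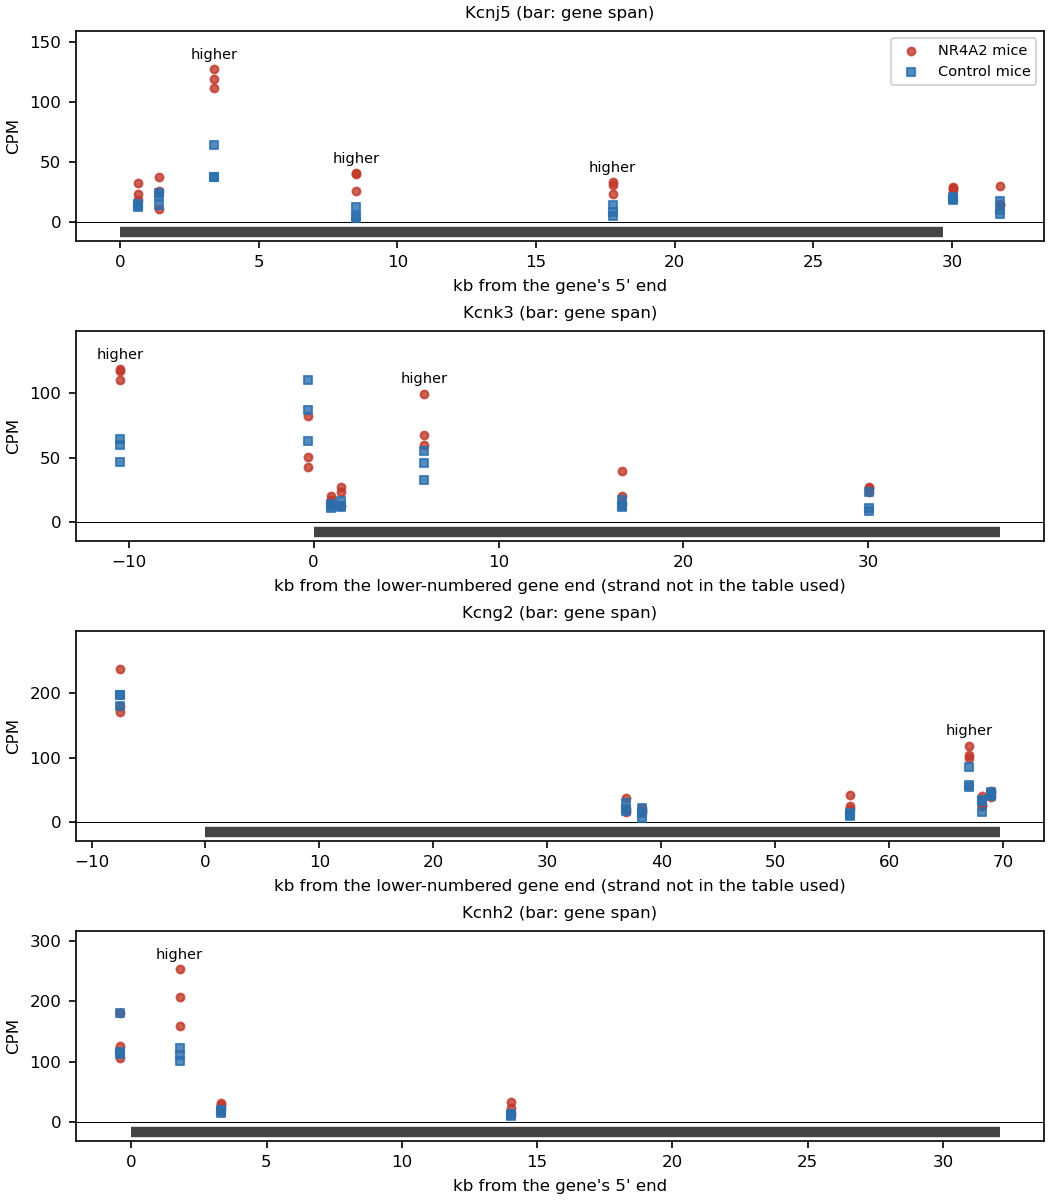
CPM of each mouse in every region along Kcnj5, Kcnk3, Kcng2 and Kcnh2, against the distance of the region's centre in kb from a gene end; grey bars show gene spans and called regions are named. The higher regions lie inside Kcnj5, Kcng2 and Kcnh2 and inside and beside Kcnk3, and at Kcnh2 and Kcnk3 the regions over the gene end itself show overlapping groups.

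Among K2P channels, 4 of 14 genes had a region, with 3 of 11 regions higher and 0 lower, where 14.7% of all regions were higher and 3.17% lower. The share higher was 27.3% and the median log2 fold change 0.56. Kcnk3, which encodes the acid-sensitive background channel TASK-1, had 7 regions, of which 2 were higher. A region 9602 bp outside the gene (chr5:30576847-30578568) had 117, 110.3 and 119 CPM in NR4A2 mice, against 64.5, 46.7 and 59.7 CPM in Control mice. The NR4A2 mice were tightly grouped and far above the Control mice (log2 fold change 1.02 ± 0.22 SE, adjusted p = 0.000324), and only on reads not scaled for depth did the region not pass (adjusted p = 0.184). Inside the gene, the region chr5:30593756-30594521 had 67.8, 59.9 and 99.6 CPM in NR4A2 mice, against 55.3, 45.7 and 32.6 CPM in Control mice (log2 fold change 0.75 ± 0.27 SE, adjusted p = 0.0372), with a narrow gap between the groups. The region over the gene end between them (chr5:30587341-30588351) had 82.1, 50.4 and 42.9 CPM in NR4A2 mice, against 87.1, 63.3 and 110.4 CPM in Control mice, where the NR4A2 mean was the lower one but the difference did not pass (log2 fold change -0.58 ± 0.25 SE, adjusted p = 0.0971).

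The call inside Kcnk3 was lost without NR4A2 mouse 1 (adjusted p = 0.0697), NR4A2 mouse 3 (0.287), Control mouse 2 (0.0571) or Control mouse 3 (0.169). The region over the end was called lower when NR4A2 mouse 1 (adjusted p = 0.0318) or Control mouse 2 (0.0346) was left out. At Kcnk2, which encodes the stretch-sensitive channel TREK-1, the single region lay within the gene (chr1:189376956-189377220) and had 20.1, 15.8 and 34.1 CPM in NR4A2 mice, against 5.12, 1.95 and 1.81 CPM in Control mice. Control mice were near the limit of 3 reads, and the ratio of depth-scaled reads was 7.49 (95% exact binomial interval 3.56 to 18.2, counting error only). This region rose as well (log2 fold change 2.64 ± 0.70 SE, adjusted p = 0.00342), and without NR4A2 mouse 3 its call was lost (adjusted p = 0.0593). The regions assigned to Kcnk4 and Kcnk6 were not called. They lie outside these genes and overlap others (Esrra, Gpr137 and Bad for Kcnk4, Yif1b for Kcnk6).

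Among calcium- or sodium-activated channels and their auxiliary subunits, 6 of 12 genes had a region, with 3 of 11 regions higher and 1 lower. These shares were 27.3% and 9.09%, beside 14.7% and 3.17% over the whole table, and the median log2 fold change was 0.21. Kcnma1 encodes the pore of the large-conductance channel that opens with calcium and voltage. Its single region, over 100 kb inside the gene (chr14:23902780-23903022), had 31.5, 48.9 and 36.6 CPM in NR4A2 mice, against 4.098, 2.92 and 3.62 CPM in Control mice. Every NR4A2 mouse was far above the Control mice, which had 2 to 4 reads each, and the ratio of depth-scaled reads was 10.7 (95% exact binomial interval 5.39 to 24.1, counting error only). The region passed under every alternative fit that included it (log2 fold change 3.12 ± 0.55 SE, adjusted p = 8.19e-06).

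Both regions of Kcnn2, which encodes a small-conductance calcium-activated channel of cardiac cells, lay deep within the gene and were higher. The first (chr18:45459016-45459241) had 22.9, 26.8 and 40.4 CPM in NR4A2 mice, against 4.098, 5.84 and 7.24 CPM in Control mice (log2 fold change 2.19 ± 0.53 SE, adjusted p = 0.00126). The second (chr18:45485273-45485549) had 34.4, 28.4 and 30.3 CPM in NR4A2 mice, against 6.15, 2.92 and 12.7 CPM in Control mice (log2 fold change 2.14 ± 0.52 SE, adjusted p = 0.00119). In both, all NR4A2 mice were above all Control mice. The lower region of this family was assigned to Kcnn1, a related channel gene, but lies 7637 bp beyond its 5′ end and overlaps Ccdc124 (chr8:70873328-70873863). It had 32.5, 50.4 and 47.9 CPM in NR4A2 mice, against 74.8, 71.05 and 94.1 CPM in Control mice, without overlap (log2 fold change -0.87 ± 0.26 SE, adjusted p = 0.0102). The call did not hold when NR4A2 mouse 1 (adjusted p = 0.0902) or Control mouse 3 (0.0599) was left out. The other regions of the family were not called, nor was the single region at Kcnrg, a regulator of channel assembly. The Kcnrg region overlaps Trim13, and those assigned to Kcnmb3 and Kcnu1 overlap Zfp639 and Ash2l.

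Channels known to carry or shape currents of the heart were listed as 20 genes, a list drawn up with earlier results of these data known. A region was present at 16 of them, with higher ones at 8 genes and a lower one at 1, Kcnip2. Of their 40 regions 12 were higher (30%, against 14.7% of all regions) and 1 lower (2.5%, against 3.17%). The median log2 fold change was 0.58 in this list and -0.06 over all regions. The higher genes were Kcne1, Kcnh2, Kcnj2, Kcnj5, Kcnk2, Kcnk3, Kcnma1 and Kcnn2.

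**Figure D4:**
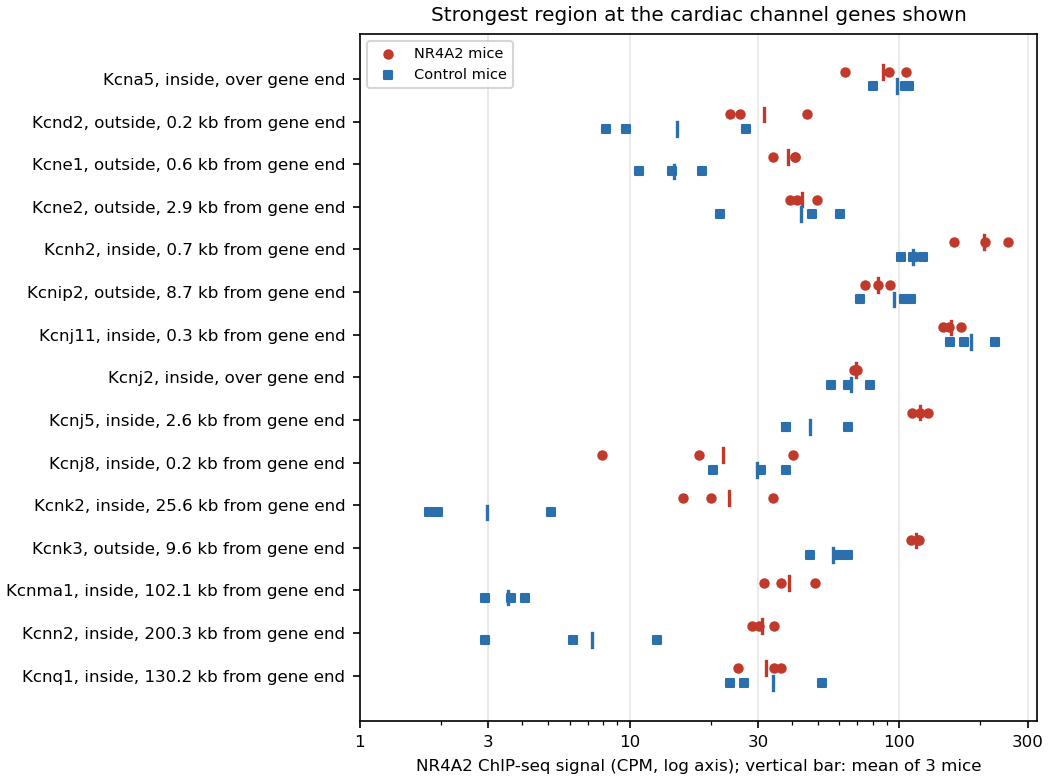
CPM of each mouse (log axis) in the region with the highest mean signal at 15 listed cardiac channel genes that had a region; vertical bars are means of 3 mice. NR4A2 mice (red circles) lie right of all Control mice (blue squares) at Kcne1, Kcnh2, Kcnj5, Kcnk2, Kcnk3, Kcnma1 and Kcnn2, and the groups overlap at the other 8 genes. The Kcnip2 row shows a region 8671 bp outside the gene, over Oga, and not its promoter region. The Kcnk3 row shows a region 9602 bp outside the gene, and the Kcne2 row one 2941 bp outside, over Smim11. Those of Kcne1 and Kcnd2 lie 612 and 183 bp outside.

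Higher regions at potassium channel genes lay mostly away from gene ends. Of the 45 regions over 1 kb from any protein-coding gene end, 16 were higher (35.6%) and 0 lower, against 26.1% and 2.39% of all such regions in the table. Of the 36 closer to a gene end, 2 were higher (5.56%) and 2 lower (5.56%), against 2.31% and 4.02% of all such regions. The higher regions were short, with a median of 294.5 bp, while those not called had a median of 444 bp. All higher regions in the table had a median of 369 bp, and all uncalled regions one of 447 bp. Of the 18 higher regions, 12 lay within the span of the channel gene (66.7%), while 59.7% of all higher regions lay within a protein-coding gene. A channel gene was the nearest gene of 17 of the 18. Of the 61 uncalled regions, 37 had a channel gene as the nearest one, while the other 24 lay nearer to another gene.

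Signal class and position were counted separately, and how far they overlap was not tested. Regions of at least the median mean signal of the table (37.4 CPM) were less numerous among the channel genes, 34 of 81. Among these 34, 6 were higher and 1 lower (17.6% and 2.94%), against 6.61% and 5.25% of all such regions. Among the 47 weaker regions 12 were higher and 1 lower (25.5% and 2.13%), against 22.7% and 1.10% of all such regions. At the limit of the assignment, the outermost region counted was 9889 bp from Kcnip2, with a log2 fold change of -0.60.

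**Figure D5:**
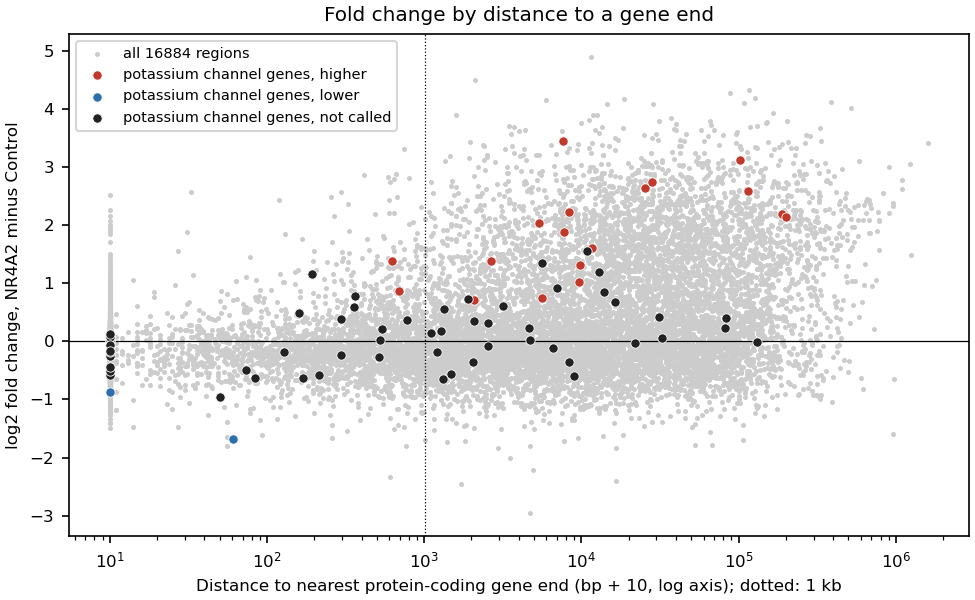
Log2 fold change (NR4A2 minus Control) against the distance in bp to the nearest protein-coding gene end (log axis, 10 added), for all 16884 regions (grey) and the 81 regions at potassium channel genes (red higher, blue lower, black not called); the dotted line marks 1 kb. Of the 18 red points 16 lie right of the line, and both blue points lie left of it.

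Genes that work with the channels were counted in the same fit. Of 15 partners and regulators of potassium channels, 11 had a region, 2 had a higher one and 1 a lower one, among 21 regions with a median log2 fold change of 0.02. The shares of these regions, 9.52% higher and 4.76% lower, lay below the 14.7% and above the 3.17% of all regions. Signal rose 7241 bp from Irx5, a homeobox repressor of Kcnd2 in the mouse ventricle (23.9, 28.4 and 30.3 CPM in NR4A2 mice, against 7.17, 2.92 and 10.9 CPM in Control mice, log2 fold change 1.97 ± 0.53 SE, adjusted p = 0.00418). The region within Irx5 did not pass (log2 fold change 0.02 ± 0.47 SE, adjusted p = 0.982). Signal also rose beside Lrrc52, an auxiliary subunit of large-conductance potassium channels (log2 fold change 1.46 ± 0.37 SE, adjusted p = 0.00224). Signal fell in 1 of 2 regions of Dlg1, a scaffold that binds channels at the membrane (log2 fold change -0.67 ± 0.23 SE, adjusted p = 0.0292), while the other had a positive difference that did not pass (0.58 ± 0.23 SE, adjusted p = 0.0751). None of the 8 regions at Abcc8 and Abcc9, the sulfonylurea receptors of the ATP-sensitive channel, was called, and 2 of these 8 also belong to Kcnj11. Klf15, an activator of Kcnip2, had 2 uncalled regions.

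All 12 listed genes of potassium transport other than channels had a region. Of their 44 regions 5 were higher and 0 lower (11.4% and 0%, below the 14.7% and 3.17% of all regions), with a median log2 fold change of -0.03. The potassium-chloride cotransporter gene Slc12a7 had 3 higher regions of 4, with log2 fold changes of 0.94 to 2.00, and Slc12a4 had 1 of 4 (log2 fold change 2.36 ± 0.47 SE, adjusted p = 6.61e-05).

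Markers of other cell types of the ventricle gave few regions. The endothelial list had 12 regions at 3 of 5 genes (summed signal 369.5 to 504 CPM in NR4A2 mice and 494 to 620.0 CPM in Control mice). Of these 12 regions 0 were higher and 1, at Pecam1, was lower (0% and 8.33%, against 14.7% and 3.17% of all regions). The fibroblast list had 4 regions at 3 of 6 genes (88.3 to 146 CPM in NR4A2 mice and 99.6 to 163 CPM in Control mice). The pericyte and smooth muscle list had 3 regions at 3 of 5 genes (56.8 to 86.7 CPM in NR4A2 mice and 52.5 to 61.3 CPM in Control mice). The leukocyte list had 2 regions at 1 of 5 genes (340.5 to 375 CPM in NR4A2 mice and 418 to 460.4 CPM in Control mice). None of the regions of these last 3 lists was called. With so few regions, the counts of these marker lists say little about the cell types. The 5 Schwann cell and neuron markers had no region to analyse here. The summed endothelial and leukocyte signals were lower on average in NR4A2 mice, and their part in the results above was not tested.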

How the data were processed

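Chromatin from 6 ventricles was immunoprecipitated with an NR4A2 antibody (clone 9D12) in the presence of added fly chromatin, per the labels' protocols. The other 3 of the 9 samples, 2 inputs and 1 ChIP made to test the antibody, were not used here. The submitters' processing notes name BWA and GRCm38 (mm10). How peaks were called, merged and counted was not given in the sources used here.

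CPM per mouse were deposited by the authors, per the file headers. Whole reads were recovered from them by dividing by the smallest value above 0 (100% of values whole within 0.001 of a read). The scaling left beyond reads in regions, 0.991 to 1.01, equals the TMM factors that edgeR gives on these reads, so no spike-in factor enters it. Whether reads had been reduced by the spike-in before counting is not known, and recovered reads and depths are meant as deposited. The authors also deposited log2 values (fold change, mean CPM) and p-values with FDR; the calls they made from these are given here, with the values of 1 region.

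The test was limma (version 3.58.1, R 4.3.3) with trend and robust moderation on log2(CPM + 1), genotype as the only term, over all 16884 regions with no filter. Fold changes are on that scale, which understates changes of weak regions. Mice are separate animals per the labels. edgeR (4.0.16) and DESeq2 (1.42.0) on recovered reads were alternatives. Positions are 1-based on GRCm38, with gene spans from RefSeq GRCm38.p6.

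The members and gene lists were chosen with earlier results of these data known. Regions are named by rule: called regions of at least median mean signal, and for 20 cardiac genes the strongest and any called region, together with the genes that have most regions. The called regions at Kcnh5, Kcnip3 and Kcnj6 and the weaker one of Kcnh7 fall outside it and were added after their values were seen. Also outside the rule are uncalled regions: that over the Kcnh2 5′ end, the weaker one of Kcnj11, the outermost of Kcnip2 and the weakest of Kcnq1. Some items are not reported here by name, although the counts include them.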

Additional observations from a re-analysis of the deposited data

How the results depend on the processing

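With 1 mouse left out, 14 to 18 regions at 11 to 14 potassium channel genes were higher and 1 to 4 regions at 1 to 4 genes lower (1 region without Control mouse 1 or 3, and 4 without Control mouse 2), while 9.34% to 13.8% of all regions were higher and 1.6% to 2.69% lower. Regions of at least median signal alone gave 5 higher regions at 5 genes and 1 lower region at 1 gene, of the 34 that were then tested (5.7% of all those regions were higher and 2.78% lower). Recovered reads with no scaling for depth gave 9 higher regions at 6 genes and 1 lower region at 1 gene (8.28% and 0.0829% of all regions). Without trend and robust moderation 17 higher regions at 13 genes and 1 lower region at 1 gene were called (13.2% and 0.782% of all regions). An adjusted p under 0.01 gave 14 higher regions at 10 genes and 1 lower region at 1 gene. The share of all regions at that threshold is not given here. With the nearest gene only, 17 higher regions at 12 genes and 1 lower region at 1 gene were left. Of the 45 regions that touch a gene span with no extension, 12 at 8 genes were higher and 1 at 1 gene was lower. An extension of 50 kb gave 26 higher regions at 21 genes and 4 lower regions at 4 genes, of a number of regions not given here. The nearest-gene and span settings use the main fit, in which 14.7% of all regions were higher and 3.17% lower. With no scaling for depth the calls at Kcne1, Kcng2, Kcnh2, Kcnip3, Kcnj2, Kcnj6, Kcnn1, Kcnk3 (both) and the third Kcnj5 region were lost. DESeq2 lost those at Kcng2, Kcnj2 and inside Kcnk3, and the fit without trend and robust moderation lost these 3 and those at Kcnh2 and Kcnn1. The causes were not tested, except that a narrower or wider span holds fewer or more regions by construction. Pseudocounts of 0.5 and 5 CPM, edgeR and DESeq2 gave 18, 19, 19 and 15 higher regions (14.4%, 15.4%, 15% and 12.9% of all regions) and 2 lower ones each (2.99%, 3.48%, 3.22% and 1.49%). Of the 20 called regions, 8 passed under every alternative fit run on them and 12 were lost under at least 1, and no called region changed direction. Of 24 further regions followed that were not called, 3 passed under at least 1 alternative. Mouse numbers are shared between the groups, but deviations of same-numbered mice correlated at only -0.07, 0.06 and 0.03. NR4A2 mouse 1 correlated best with Control mouse 3 (0.07). These values give no sign of pairing by number, but with 3 mice in each group they cannot show whether mice shared a litter or handling. With the replicate block 20 higher and 2 lower regions were called (15% and 3.44% of all regions). Depth limits the weak regions, where Control mice often had under 10 reads.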
